A study of Homo sapiens with 12 samples.

Results

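The 10 genes described here belong to insulin and insulin-like growth factor (IGF) signalling. They are the ligand gene IGF2, the receptor genes INSR, IGF1R and IGF2R, the binding protein genes IGFBP2, IGFBP3 and IGFBP5, the receptor substrate genes IRS1 and IRS2, and PIK3R1. They were taken by symbol, and each was found once among the 58575 genes of the count table. RNA-Seq had been performed on 201B7, an established human induced pluripotent stem cell (iPSC) line labelled as derived from skin, in 4 culture conditions with 3 libraries each. Cond 1 was the untreated control, and Cond 2 was the low-nutrient culture, in which the StemFit medium had been heated at 56 °C for 30 min. Cond 3 was culture in a differentiation medium of DMEM with 10% FBS, 1% NEAA and 1% GlutaMax, and Cond 4 was a physical stimulus, pipetting 20 times at passage. Every library came from this 1 line, and cells were harvested on Day 5. The paper places the start of the heated medium on Day 2 and of the FBS medium on Day 4. Cond 2 and Cond 3 thus differed in length of exposure as well as in medium. The amounts of insulin and IGFs in these media were not given in the sources used here. In the paper each plate held 1 well per condition and the whole arrangement was run 3 times, while the replicates are also called technical. The p-values thus measure the spread between these libraries, which may be technical. No label ties a replicate number to a plate or run, so the main fit did not pair libraries.

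In this pathway insulin and the IGFs bind the receptor tyrosine kinases encoded by INSR and IGF1R, which phosphorylate the IRS adaptor proteins. These recruit phosphoinositide 3-kinase (PI3K), whose regulatory subunit p85α is the product of PIK3R1, and PI3K activates the kinase AKT. AKT in turn promotes mTOR signalling and keeps FOXO transcription factors out of the nucleus. Secreted IGF binding proteins hold IGFs away from the receptors or carry them to cells, and IGF2R removes IGF2 without signalling as a kinase. Human pluripotent stem cells are commonly grown with insulin in the medium, and IGF signalling supports their survival and self-renewal.

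Of the 10 genes, 9 passed the filter on low counts and were tested, and IGF2 did not pass. A gene was called when the adjusted p-value of edgeR's quasi-likelihood test, over 17747 genes, was under 0.05, and it was a differentially expressed gene (DEG) when its fold change was also above 2. Cond 3 against Cond 1 had 6 members called. INSR, IGF2R and IGFBP3 were higher, and IGFBP2, IGFBP5 and PIK3R1 were lower. In all genes 38.4% were called in this comparison, 19.5% higher and 18.8% lower. The DEGs among the members were IGFBP3 and PIK3R1, where 8.16% of all genes were DEGs. In Cond 2 against Cond 1, 4 members were called, of which IGF2R, IRS1 and IGFBP3 were higher and IGFBP2 was lower, beside 20.9% of all genes (10.8% higher and 10.1% lower). None of the members was a DEG in Cond 2, where 4.34% of all genes were. In Cond 4 against Cond 1, edgeR called 0 members and 0.0282% of all genes (DEGs 0.0169%), and at an unadjusted p-value under 0.05 it was 1 member, IGF1R. DESeq2 and limma called 0 members there as well.

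Cond 3 and Cond 2 were also compared directly, since both departed from the control. Their media and the length of exposure to them differed together and cannot be told apart here. Relative to Cond 2, INSR, IGFBP2 and IGFBP3 were higher in Cond 3 and IRS1, IGFBP5 and PIK3R1 were lower, which makes 6 members beside 38.2% of all genes (19% higher and 19.2% lower). IGFBP5 was the only DEG of the 9 members in this comparison, where 8.77% of all genes were DEGs. Against Cond 1, the 9 members had a median log2 fold change of 0.183 (Cond 2), 0.091 (Cond 3) and -0.024 (Cond 4), and between Cond 3 and Cond 2 it was -0.094. Over all genes tested the same medians were 0.000, -0.006, 0.000 and -0.001. The 3 comparisons with Cond 1 share its libraries. Of all called genes in Cond 2 against Cond 1, 51.6% were higher, and it was 48% with upper-quartile normalization and 71.4% with limma on log2(TPM + 1), which also has another test and filter. Between Cond 3 and Cond 2 these shares were 49.7%, 55.7% and 37.9%. TPM is a level per gene length, scaled to a common total in each library, and is used below wherever genes are set side by side. With limma on log2(TPM + 1), over its own 14253 genes, the median log2 fold change was 0.085 in Cond 2 against Cond 1. Between Cond 3 and Cond 2 it was -0.069. TPM in Cond 2 thus lay somewhat above the scale of the main fit. Separations of Cond 2 by TPM are to be read with this offset, and the share of all genes that separate was not counted.

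**Figure D1:**
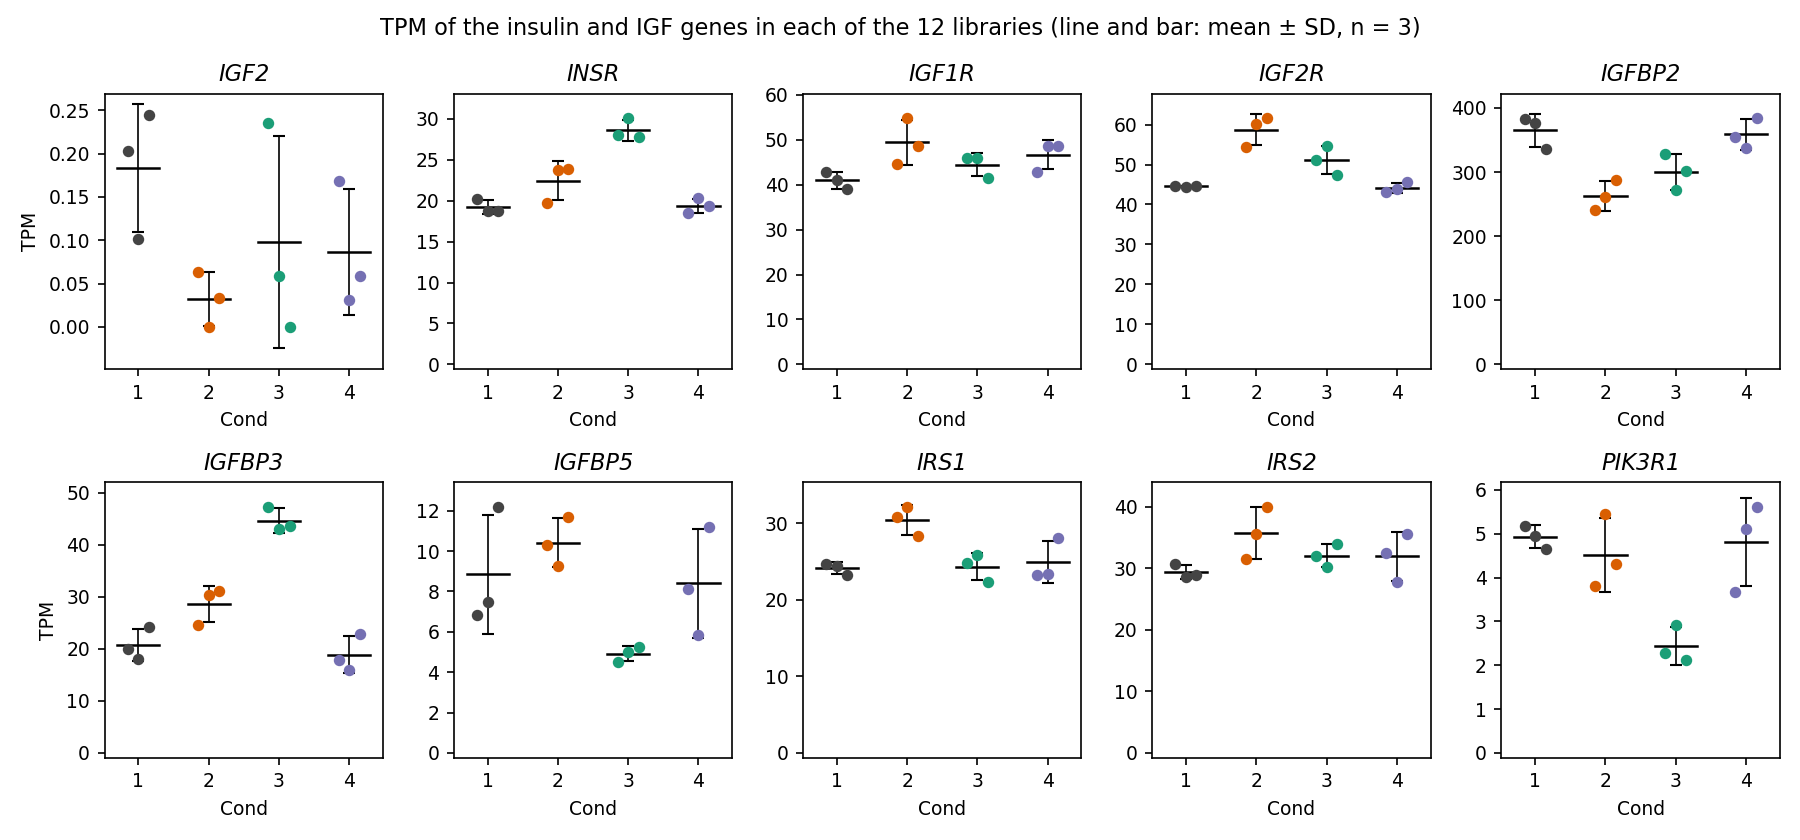
TPM of the 10 genes (y axis, linear, a separate range per gene) in each of 12 libraries (points) by condition (x axis), with the mean (line) and SD (bar, n = 3). The 3 Cond 3 libraries lie above the 3 Cond 1 libraries for INSR, IGF2R and IGFBP3 and below them for IGFBP2, IGFBP5 and PIK3R1. IGF2 stays at or under 0.245 TPM.

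The libraries held between 16441148 and 21871503 counts. Markers of pluripotent stem cells summed to between 7380 and 9490 TPM per library, with between 7380 and 8480 TPM in Cond 2, whereas 8 mesendoderm markers summed to at most 6.05 TPM. Single pluripotency markers moved in both directions. NANOG was 2.12-fold lower in Cond 2 and 4.46-fold lower in Cond 3, and TDGF1 was 2.83-fold and 1.92-fold lower, while SOX2 was 1.35-fold and 1.36-fold higher. POU5F1, a defining pluripotency gene, was listed at only 6 to 25 reads per library, and 86.9% of the 31-base words of its transcripts also occur on alternate haplotype sequences of the reference. For the 10 members this share was between 0% (IGFBP3 and IGFBP5) and 4.86% (IGFBP2). Fibroblast markers summed to between 416 and 447 TPM in Cond 1, 256 and 306 in Cond 2, 581 and 618 in Cond 3, and 377 and 399 in Cond 4. Of these 8 markers, COL1A1 and COL1A2 rose in Cond 3, as did POSTN (13.4-fold, from at most 0.332 TPM to between 1.79 and 3.28), and THY1 fell, while COL3A1, LUM, DCN and FAP were under 1 TPM in every library. Neuroectoderm markers summed to between 347 and 402 TPM in Cond 1, 773 and 1090 in Cond 2, and 519 and 546 in Cond 3. In Cond 2, 5 of these markers were called higher, namely SIX3 (61.3-fold, to 158 ± 50.4 TPM), LHX5 (31.3-fold, to 262 ± 65.4 TPM), HESX1 (9.51-fold), ZIC1 (6.1-fold) and PAX6 (4.58-fold, adjusted p = 0.0451). PAX6 and SOX1 were under 1 TPM in every library. In Cond 3, LHX5 (4.02-fold), HESX1 (1.73-fold) and NES (1.35-fold) were called higher, and SIX3, ZIC1, PAX6 and LHX2 were not called. The mesendoderm marker TBXT was also called higher in Cond 3 (13.6-fold, to between 0.683 and 1.39 TPM), and MIXL1 was not called. The part of these shifts in the results below was not tested. In bulk RNA, fewer cells of a type and less RNA per cell cannot be told apart.

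Promoter sequences are shown for INSR, IGFBP3 and IGFBP5, the 3 members with the largest changes in Cond 3 among the 7 with a single start in RefSeq's promoter table. They were chosen after the values were seen and show what the regions before these starts look like. The 250 bases before the start that RefSeq lists for each gene are given 5′ to 3′ on the gene's strand (GRCh38.p14). INSR lies on the reverse strand with its sequence at chr19:7294415-7294664, IGFBP3 on the reverse strand at chr7:45921273-45921522, and IGFBP5 on the reverse strand at chr2:216695550-216695799. The IGFBP3 bases lie inside the span that GENCODE 44 gives for this gene (45912245 to 45921874), whose start there differs from RefSeq's. Capitals mark matches to the GC box GGGCGG on either strand.
INSR: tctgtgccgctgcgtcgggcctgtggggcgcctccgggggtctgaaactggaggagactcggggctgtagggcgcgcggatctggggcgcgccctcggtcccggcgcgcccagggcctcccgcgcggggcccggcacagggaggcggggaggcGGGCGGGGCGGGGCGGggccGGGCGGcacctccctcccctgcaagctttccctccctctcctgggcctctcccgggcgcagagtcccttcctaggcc
IGFBP3: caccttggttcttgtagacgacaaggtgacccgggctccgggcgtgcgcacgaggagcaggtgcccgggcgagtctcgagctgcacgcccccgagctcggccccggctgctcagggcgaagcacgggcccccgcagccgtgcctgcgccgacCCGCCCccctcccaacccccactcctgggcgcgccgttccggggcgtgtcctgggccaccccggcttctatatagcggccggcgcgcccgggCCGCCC
IGFBP5: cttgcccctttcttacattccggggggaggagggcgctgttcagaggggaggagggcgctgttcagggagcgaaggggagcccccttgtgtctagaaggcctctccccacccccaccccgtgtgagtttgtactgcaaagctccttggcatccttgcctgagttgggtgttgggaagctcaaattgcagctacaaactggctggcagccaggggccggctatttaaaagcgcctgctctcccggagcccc
INSR had 4 GC boxes, of which 3 overlap by 1 base, and 78.4% of its bases were G or C. IGFBP3 had 2 matches, both read on the other strand, at 76.0% G or C. IGFBP5 had none, at 61.2% G or C, where the median over all promoters was 58.0%. GC boxes were found in 42.6% of 35116 promoters of this length and in 6 of the 7 members with a single start. The TATA box TATAAA (10.7% of promoters) and the FOXO motif GTAAACA (2.98%) were in none of these 7, and the CCAAT box (32.0%) was in 1 of them, IRS2. These matches describe the letters only.

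IGF2, an imprinted gene for a growth factor of the fetus and placenta (chromosome 11, 2129112 to 2158391, reverse strand), was at the edge of detection. The 3 libraries held 7, 3 and 9 reads in Cond 1, 2, 0 and 1 in Cond 2, 9, 2 and 0 in Cond 3, and 5, 1 and 2 in Cond 4. The summed reads were 19, 3, 11 and 8. The Cond 2 libraries lay below those of Cond 1 without overlap (exact two-sided permutation p = 0.1 on TPM, the smallest that 3 against 3 allows), and the 3 other comparisons overlapped. IGF2 was left out of the main edgeR fit, and a permutation test with this floor cannot pass 0.05 at any depth. The main fit and this test therefore did not decide whether IGF2 differed, and its values in the fits without that filter are not reported here. Of the exon bases of IGF2, 37.9% are shared on the same strand with the gene model ENSG00000284779 and 20.4% with INS-IGF2, a readthrough of the insulin and IGF2 genes. Both of those were listed at 0 in every library. How reads that overlap several genes were counted is not given in the sources used here, so the level of IGF2 is stated only as listed. H19, the maternally expressed noncoding gene beside IGF2, had 1 read in 1 Cond 4 library and was otherwise listed at 0. The other ligand genes INS and IGF1 were listed at 0 in every library.

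INSR encodes the insulin receptor and lies on chromosome 19 (7112255 to 7294414, reverse strand). Its level was 20.2, 18.7 and 18.8 TPM in Cond 1, 19.7, 23.8 and 23.9 in Cond 2, 28.0, 30.1 and 27.8 in Cond 3, and 18.5, 20.3 and 19.3 in Cond 4. All 3 Cond 3 libraries were above all 9 others, and the other conditions overlapped. INSR rose 1.46-fold in Cond 3 (log2 fold change 0.54 ± 0.0722 SE, adjusted p = 2.66e-06). Against Cond 2 it was 1.33-fold higher (adjusted p = 8.49e-05). The log2 fold change was 0.13 in Cond 2 (adjusted p = 0.223) and -0.005 in Cond 4 (adjusted p = 0.996). Counts per gene do not separate the INSR isoforms with and without the alternative exon.

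IGF1R encodes the IGF1 receptor, the signalling receptor for both IGFs, and lies on chromosome 15 (98648539 to 98964530, forward strand). It was at 42.9, 41.0 and 39.0 TPM in Cond 1, 44.7, 54.8 and 48.7 in Cond 2, 45.9, 46.0 and 41.5 in Cond 3, and 42.9, 48.6 and 48.5 in Cond 4. Neighbouring conditions in the order of the means (Cond 1, Cond 3, Cond 4, Cond 2) all overlapped, while every Cond 2 library was above every Cond 1 library. That separation includes the TPM offset of Cond 2, as mean TPM was 121% of Cond 1 beside 1.13-fold from edgeR. In none of the comparisons was IGF1R called. The log2 fold change was 0.18 ± 0.066 in Cond 2 (adjusted p = 0.0528), 0.091 in Cond 3 (adjusted p = 0.3) and 0.18 ± 0.0661 in Cond 4 (unadjusted p = 0.0145, adjusted p = 0.787). The Cond 2 value was close to the threshold and passed it with DESeq2 (adjusted p = 0.0438), without the filter on low counts (0.0465), with limma on log2(TPM + 1) (0.0496) and without Cond 2 replicate 1 (0.0173). It also passed with a replicate block, as given below.

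The balance of the 2 receptor kinases was described by the share of IGF1R. It made up 68.0% ± 0.592 (SD, n = 3) of the summed TPM of IGF1R and INSR in Cond 1, 68.8% ± 1.46 in Cond 2, 60.8% ± 1.12 in Cond 3 and, with the highest share, 70.7% ± 0.823 in Cond 4. The Cond 3 libraries, at 62.1%, 60.5% and 59.9%, were below all others. The difference from Cond 1 was -7.19 percentage points, with an exact two-sided permutation p = 0.1, the smallest that 3 against 3 allows (adjusted p = 0.2 over 12 tests of shares). Cond 4 differed from Cond 1 by 2.63 points without overlap, at the same exact p = 0.1. The third gene of this receptor family, INSRR, had 0 to 8 reads per library.

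IGF2R, the cation-independent mannose 6-phosphate receptor, delivers IGF2 to lysosomes (chromosome 6, 159969082 to 160113507, forward strand). It was at 44.7, 44.3 and 44.5 TPM in Cond 1, 54.3, 60.2 and 61.6 in Cond 2, 51.2, 54.7 and 47.5 in Cond 3, and 43.0, 43.8 and 45.6 in Cond 4. Every library of Cond 2 and Cond 3 was above every library of Cond 1 and Cond 4, and Cond 2 and Cond 3 overlapped. IGF2R rose 1.24-fold in Cond 2 (log2 fold change 0.31 ± 0.0555, adjusted p = 2.03e-04) and 1.13-fold in Cond 3 (0.17 ± 0.0555, adjusted p = 0.0167). The Cond 3 call was lost without Cond 1 replicate 1 (adjusted p = 0.0501) and without Cond 3 replicate 2 (adjusted p = 0.124). Between Cond 3 and Cond 2 IGF2R differed by -0.14 on the log2 scale (adjusted p = 0.0516), which passed the threshold without Cond 2 replicate 1 (adjusted p = 0.0229), without Cond 3 replicate 2 (adjusted p = 0.0161) and with DESeq2 (adjusted p = 0.0498).

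**Figure D2:**
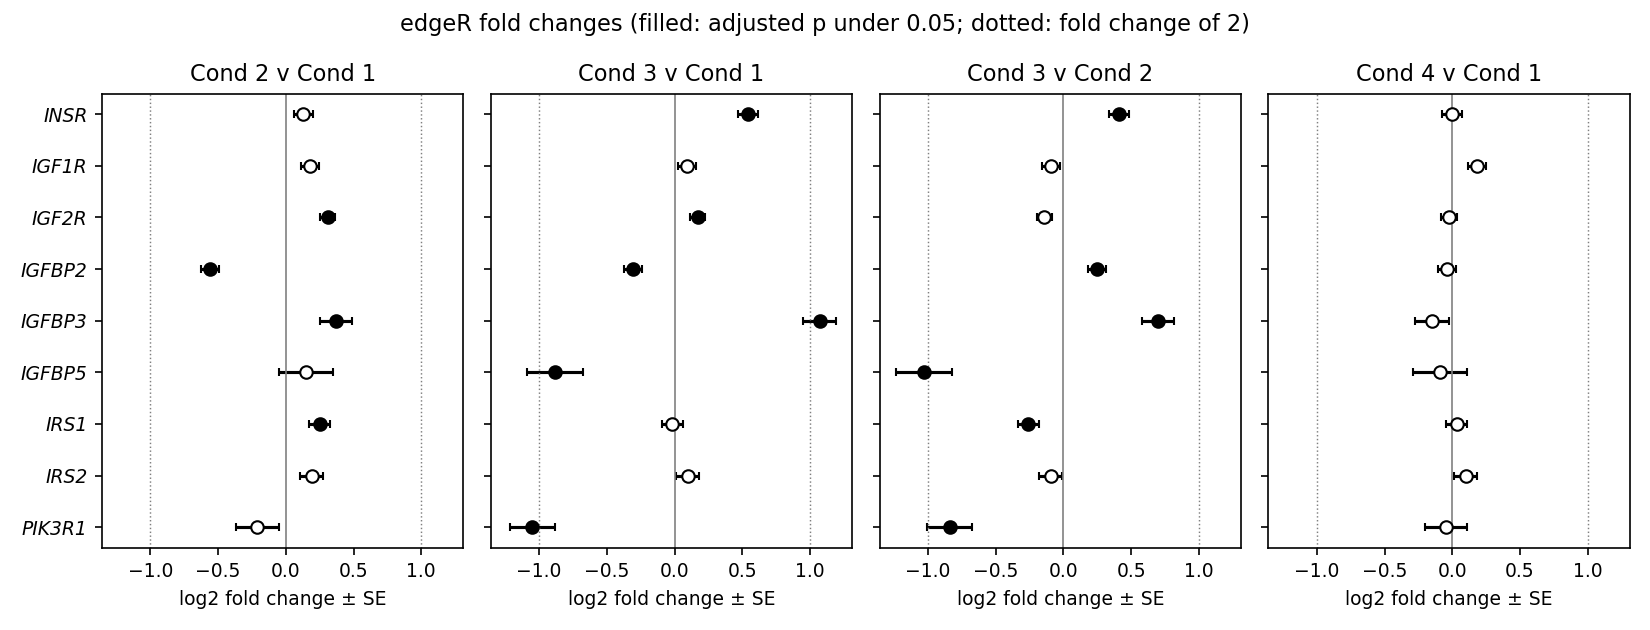
Log2 fold change (x axis) with its SE (bar) of the 9 tested genes in 4 comparisons (panels), from edgeR over 12 libraries, with filled points for an adjusted p-value under 0.05 and dotted lines at a 2-fold change. IGFBP3, at 1.07, and PIK3R1, at -1.05, pass the dotted lines in Cond 3 against Cond 1, and no point is filled in Cond 4 against Cond 1.

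The 3 binding protein genes each behaved differently. IGFBP2 fell in Cond 2 and Cond 3, IGFBP3 rose in both, and IGFBP5 was called only with Cond 3 in the comparison. IGFBP2, the most abundant of the 10 members, ranked 366 among 17549 genes with a mean TPM of at least 1 in Cond 1. It encodes a secreted protein that binds IGF2 in particular and lies on chromosome 2 (216632828 to 216664436, forward strand). Its level was 382, 377 and 336 TPM in Cond 1, 241, 261 and 287 in Cond 2, 328, 272 and 302 in Cond 3, and 355, 337 and 384 in Cond 4. Cond 2 and Cond 3 overlapped each other and lay below every library of Cond 1 and Cond 4. IGFBP2 was 1.48-fold lower in Cond 2 (log2 fold change -0.56 ± 0.0665, adjusted p = 1.07e-06) and 1.24-fold lower in Cond 3 (-0.31 ± 0.0662, adjusted p = 7.42e-04). Relative to Cond 2, the Cond 3 level was 1.19-fold higher (adjusted p = 0.00413), a call that was lost with limma on log2(TPM + 1) (adjusted p = 0.127).

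IGFBP3, the main IGF carrier of blood serum, lies on chromosome 7 (45912245 to 45921874, reverse strand). Its level was 19.9, 18.1 and 24.2 TPM in Cond 1, 24.6, 30.3 and 31.0 in Cond 2, 47.3, 43.0 and 43.5 in Cond 3, and 17.9, 15.9 and 22.8 in Cond 4. The libraries of Cond 1, Cond 2 and Cond 3 did not overlap, with Cond 3 the highest, and Cond 4 overlapped Cond 1. IGFBP3 rose 2.1-fold in Cond 3 (log2 fold change 1.07 ± 0.119, adjusted p = 2.05e-07), and without Cond 1 replicate 2 the log2 fold change was 0.982, under the 2-fold limit. Cond 3 was also 1.62-fold above Cond 2 (adjusted p = 4.96e-05). The smaller rise in Cond 2 was 1.3-fold (log2 fold change 0.37 ± 0.121, adjusted p = 0.0292). It was not called without Cond 1 replicate 1 (adjusted p = 0.113), Cond 1 replicate 2 (adjusted p = 0.145), Cond 2 replicate 2 (adjusted p = 0.107) or Cond 2 replicate 3 (adjusted p = 0.0951).

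IGFBP5, which encodes a binding protein found in extracellular matrix, is the neighbour of IGFBP2 on chromosome 2 (216672105 to 216695549, reverse strand), with 7668 bases and 0 protein-coding genes between them. It was at 6.82, 7.5 and 12.2 TPM in Cond 1, 10.3, 9.26 and 11.7 in Cond 2, 4.52, 5.0 and 5.25 in Cond 3, and 8.14, 5.85 and 11.2 in Cond 4. Each Cond 3 library was below all 9 others, and the others overlapped. IGFBP5 was 1.84-fold lower in Cond 3 than in Cond 1 (log2 fold change -0.88 ± 0.207, adjusted p = 0.00171), and without Cond 1 replicate 3, the highest control library, the log2 fold change was -0.561 (adjusted p = 0.0334). It was 2.04-fold lower than in Cond 2 (log2 fold change -1.03 ± 0.206, adjusted p = 3.83e-04). That value was within 2-fold without Cond 2 replicate 3 (-0.944) and without Cond 3 replicate 1 (-0.963). The 2 neighbours thus differed in Cond 2, with a log2 fold change of -0.56 for IGFBP2 and 0.15 ± 0.198 (adjusted p = 0.675) for IGFBP5.

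Over the family IGFBP1 to IGFBP6, the summed level was 562 ± 22.0 TPM (SD, n = 3) in Cond 1, 459 ± 45.9 in Cond 2, 552 ± 40.8 in Cond 3, and 563 ± 33.3 TPM with Cond 4. The make-up of this sum was described by the share of IGFBP2. It contributed 64.9% ± 2.19 in Cond 1, 57.3% ± 1.13 in Cond 2, 54.4% ± 1.51 in Cond 3 and 63.6% ± 0.753 in Cond 4. This share was lower than in Cond 1 by 7.6 points in Cond 2 and by 10.5 points in Cond 3, and lower in Cond 3 than in Cond 2 by 2.95 points, without overlap in these comparisons (exact two-sided permutation p = 0.1 each, adjusted p = 0.2 over 12 tests). IGFBP4, the next most abundant, was at 149 ± 1.77 TPM in Cond 1 and 166 ± 12.8 in Cond 3 (adjusted p = 0.196). IGFBP6, which prefers IGF2, rose from 18.4 ± 4.98 to 35.9 ± 2.01 TPM in Cond 3 (log2 fold change 0.93, adjusted p = 2.88e-04). IGFBP1 was listed at 0 in all libraries but 1, which had 1 read.

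**Figure D3:**
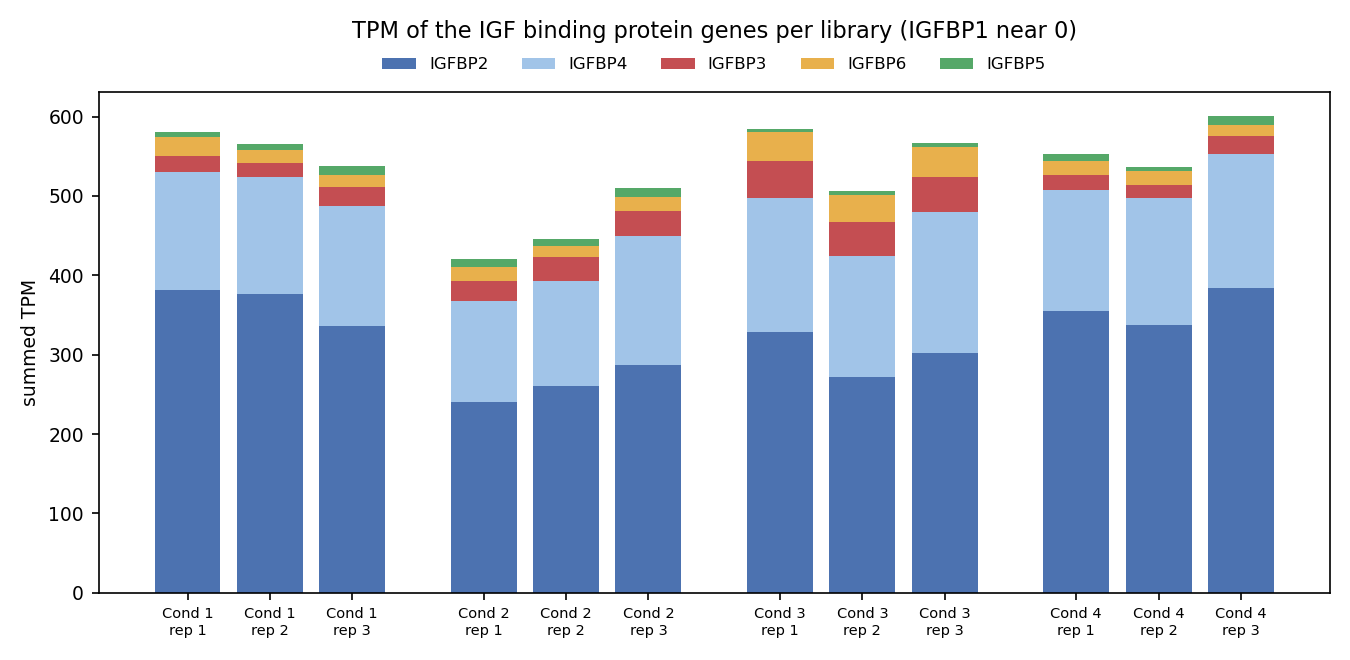
Stacked TPM of 5 IGF binding protein genes (y axis, linear from 0) in each of 12 libraries (bars, grouped by condition). IGFBP2 is the largest segment in every library, at 64.9% of the mean in Cond 1 and 54.4% in Cond 3, where the IGFBP3 and IGFBP6 segments are tallest.

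IRS1 and IRS2 encode the adaptors that carry the signal from both receptor kinases to PI3K. IRS1, on chromosome 2 (226731312 to 226799820, reverse strand), was at 24.7, 24.5 and 23.3 TPM in Cond 1, 30.8, 32.2 and 28.4 in Cond 2, 24.8, 25.9 and 22.4 in Cond 3, and 23.3, 23.4 and 28.1 in Cond 4. The Cond 2 libraries were above all others, and the other conditions overlapped. IRS1 rose 1.19-fold in Cond 2 (log2 fold change 0.25 ± 0.0785, adjusted p = 0.0257) and, relative to Cond 2, was 1.2-fold lower in Cond 3 (adjusted p = 0.0099). The Cond 2 call was lost when any 1 of 5 libraries was left out, namely Cond 1 replicate 1 (adjusted p = 0.0581), replicate 2 (0.0519) or replicate 3 (0.0885), or Cond 2 replicate 1 (0.0713) or replicate 2 (0.11). The difference between Cond 3 and Cond 2 was not called without Cond 3 replicate 3 (adjusted p = 0.0706). For Cond 3 against Cond 1 a log2 fold change of only -0.016 was found (adjusted p = 0.903), which turned positive with upper-quartile normalization (0.004).

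IRS2, on chromosome 13 (109752695 to 109786583, reverse strand), was at 30.7, 28.5 and 28.9 TPM in Cond 1, 31.5, 35.5 and 40.0 in Cond 2, 32.0, 30.2 and 33.9 in Cond 3, and 32.4, 27.7 and 35.6 in Cond 4. Neighbouring conditions in the order of the means all overlapped, while every Cond 2 library was above every Cond 1 library. Here too the TPM offset of Cond 2 is included, with mean TPM at 121% of Cond 1 beside 1.14-fold from edgeR. IRS2 was not called in any comparison, with log2 fold changes of 0.19 in Cond 2 (adjusted p = 0.122) and 0.096 in Cond 3 (adjusted p = 0.405). Without Cond 2 replicate 1, the lowest of its condition, the Cond 2 value was 0.254 (adjusted p = 0.0426). IRS2 made up 54.9% ± 0.895 of the summed TPM of IRS1 and IRS2 in Cond 1, 53.8% ± 4.16 in Cond 2, 56.8% ± 3.24 in Cond 3 and 56.1% ± 1.98 in Cond 4. These shares overlapped in the 4 comparisons (exact permutation p between 0.4 and 0.7). IRS4, a further adaptor of this kind, rose in Cond 2 (log2 fold change 0.73 ± 0.185, adjusted p = 0.0057) and in Cond 3 (0.63 ± 0.186, adjusted p = 0.0102). The Cond 3 call of IRS4 was lost without Cond 1 replicate 2 (adjusted p = 0.0556) or Cond 3 replicate 1 (adjusted p = 0.0517).

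PIK3R1, on chromosome 5 (68215740 to 68301821, forward strand), encodes the p85α subunit that stabilises and holds back the catalytic subunit of PI3K until IRS proteins bind. Its level was 5.18, 4.96 and 4.66 TPM in Cond 1, 3.8, 5.45 and 4.31 in Cond 2, 2.27, 2.93 and 2.11 in Cond 3, and 3.68, 5.12 and 5.62 in Cond 4. The Cond 3 libraries were below all 9 others, and the other conditions overlapped. PIK3R1 was 2.06-fold lower in Cond 3 than in Cond 1 (log2 fold change -1.05 ± 0.165, adjusted p = 2.55e-05) and 1.78-fold lower than in Cond 2 (adjusted p = 3.39e-04). The change was within 2-fold without Cond 3 replicate 1 (-0.991) or replicate 3 (-0.958) and stayed called. Its log2 fold change in Cond 2, -0.21 ± 0.158, was not called (adjusted p = 0.397). The reads behind these values, 120 to 334 per library, were the fewest of the 9 tested members, and counts per gene do not tell apart the 4 starts that RefSeq lists for PIK3R1.

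The wider pathway was read from 75 other genes grouped by role, of which 67 passed the filter. These lists were chosen with earlier results of these data known and were not matched to all genes in read depth. Their shares of calls, here and per group below, are therefore a description and no test of enrichment. In Cond 3 against Cond 1, 37 were called, 22 higher and 15 lower, which is 55.2% beside 38.4% of all genes. In Cond 2 against Cond 1 it was 22, 12 higher and 10 lower, or 32.8% beside 20.9%. In Cond 4 it was 0, with 5 at an unadjusted p-value under 0.05, and between Cond 3 and Cond 2 it was 40, 20 in each direction, or 59.7% beside 38.2%. The median log2 fold changes of the 67 genes were 0.002 in Cond 2 and 0.085 in Cond 3, beside 0.000 and -0.006 over all genes. DEGs among the 67 numbered 3 in Cond 2 and 5 in Cond 3, near the 4.34% and 8.16% of all genes, and 11 between Cond 3 and Cond 2, where 8.77% of all genes were DEGs.

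In Cond 2, the largest rise and the largest fall among the 67 genes were both in the group of IGF binding and release. PAPPA encodes pappalysin, a protease that cleaves IGF binding proteins, and STC1 and STC2 encode stanniocalcins, which inhibit it. PAPPA was at 0.313, 0.219 and 0.633 TPM in Cond 1 and 2.85, 2.49 and 2.24 in Cond 2, without overlap, and rose 5.99-fold (log2 fold change 2.58 ± 0.331, adjusted p = 3.28e-06) on 12 to 43 reads per control library. In the same comparison STC1 was 3.38-fold lower (34.1, 41.3 and 30.2 TPM in Cond 1, 10.0, 10.8 and 12.3 in Cond 2, adjusted p = 3.26e-10), and STC2 had a log2 fold change of -0.17 (adjusted p = 0.057). In Cond 3 the 2 inhibitor genes moved in opposite directions. STC2 fell from 174 ± 8.33 to 46.9 ± 1.5 TPM, which is 3.79-fold (adjusted p = 1.38e-15), and STC1 rose 1.45-fold (adjusted p = 5.29e-04). PAPPA rose 1.9-fold in Cond 3 (adjusted p = 0.0387), a call lost without Cond 1 replicate 1 (adjusted p = 0.142) or replicate 2 (0.169), or Cond 3 replicate 1 (0.189) or replicate 3 (0.0927), and in a fit of the 6 libraries alone (0.0629). Of the 8 tested genes of this group, 2 were called in Cond 2 (25% beside 20.9% of all genes) and 5 in Cond 3, of which 4 were higher (62.5% beside 38.4%).

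**Figure D4:**
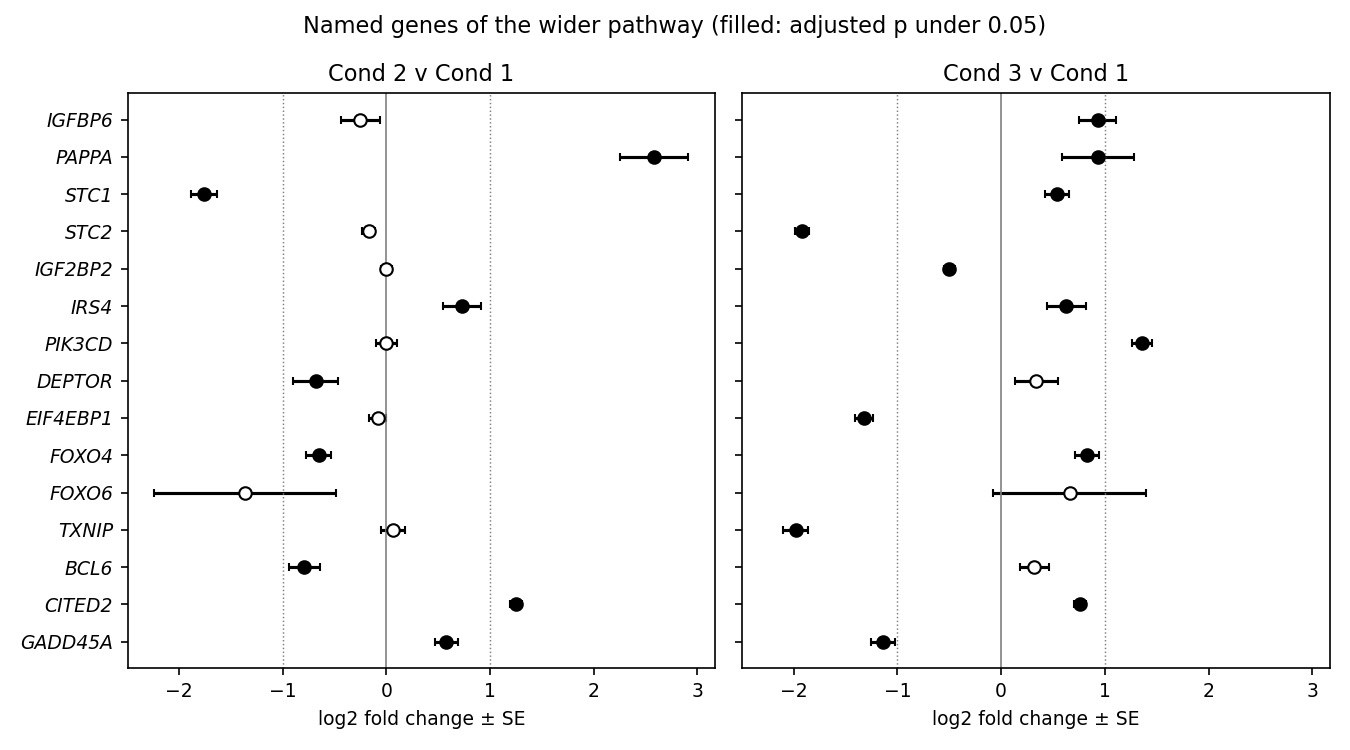
Log2 fold change (x axis) with its SE (bar) of 15 named genes of the wider pathway in Cond 2 and Cond 3 against Cond 1, from edgeR over 12 libraries, with filled points for an adjusted p-value under 0.05 and dotted lines at a 2-fold change. STC1, FOXO4 and GADD45A are filled on opposite sides of 0 in the panels, and PAPPA in Cond 2 lies farthest right, at 2.58.

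Among the catalytic and core PI3K genes, PIK3CD, the p110δ catalytic subunit best known from leukocytes, rose from 15.2 ± 1.56 to 39.5 ± 0.967 TPM in Cond 3 (log2 fold change 1.36 ± 0.0966, adjusted p = 2.19e-10). In Cond 2 it was at 16.0 ± 1.7 TPM (adjusted p = 0.999). Another catalytic subunit gene, PIK3CB, was 1.48-fold lower in Cond 3 (adjusted p = 3.06e-06). PIK3R3, a further regulatory subunit gene, was 1.61-fold higher (adjusted p = 4.19e-05), so neither kind of subunit gene moved in one direction. Of the 11 tested genes of this group 6 were called in Cond 3, 4 higher and 2 lower (54.5% beside 38.4% of all genes), and 2 in Cond 2 (18.2% beside 20.9%). PIK3R2, the p85β subunit, was listed at 0 to 3 reads in every library although most cells use it. It shares 76.4% of its exon bases with the gene model ENSG00000268173, which was listed at 0.

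Downstream, EIF4EBP1 encodes 4E-BP1, the translation repressor that mTOR phosphorylates. It fell 2.49-fold in Cond 3, from 1120, 1020 and 1140 TPM to 427, 442 and 473, without overlap (log2 fold change -1.32 ± 0.0859, adjusted p = 5.26e-11). The value in Cond 2 was -0.084 (adjusted p = 0.541). DEPTOR, an mTOR inhibitor, was lower in Cond 2 (log2 fold change -0.68 ± 0.215, adjusted p = 0.0267) and, relative to Cond 2, 2.03-fold higher in Cond 3 (adjusted p = 5.16e-04). The Cond 2 call was lost without Cond 1 replicate 2 (adjusted p = 0.12), Cond 2 replicate 1 (0.0518) or Cond 2 replicate 3 (0.0986), and with limma on log2(TPM + 1) (0.0587) and log2(TPM + 0.1) (0.058). Of the 18 genes of the mTOR and GSK3 branch, 5 were called in Cond 2 and 7 in Cond 3, which at 27.8% and 38.9% is near the 20.9% and 38.4% of all genes.

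The 4 FOXO genes encode transcription factors that AKT restrains. FOXO1 fell in Cond 2 (log2 fold change -0.31, adjusted p = 0.00707) and rose in Cond 3 (0.44, adjusted p = 1.32e-04). FOXO4 did likewise, at -0.65 (adjusted p = 3.16e-04) and 0.83 (adjusted p = 3.98e-06), and its Cond 3 level was 2.8-fold that of Cond 2 (adjusted p = 1.25e-09). FOXO3 fell in both, at -0.57 (adjusted p = 2.91e-04) and -0.83 (adjusted p = 1.76e-06). FOXO6 had 0 to 16 reads per library and was not called.

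Genes listed as FOXO targets went both ways. TXNIP, an inhibitor of glucose uptake and of thioredoxin, fell 3.94-fold in Cond 3, from 209 ± 7.59 to 54.1 ± 11.8 TPM (adjusted p = 1.49e-11), and was at 233 ± 41.0 TPM in Cond 2 (adjusted p = 0.75). CITED2, a transcriptional coregulator, rose 2.38-fold in Cond 2 (from 254 ± 19.5 to 642 ± 14.3 TPM, adjusted p = 7.41e-13) and 1.7-fold in Cond 3 (adjusted p = 1.47e-09). GADD45A, a stress-induced growth arrest gene, rose 1.49-fold in Cond 2 (adjusted p = 4.03e-04) and was 2.21-fold lower in Cond 3 (adjusted p = 6.66e-08). BCL6, a transcriptional repressor, was 1.73-fold lower in Cond 2 (adjusted p = 3.79e-04) and had a log2 fold change of 0.32 in Cond 3 (adjusted p = 0.0825). Of 11 tested targets, 5 were called in Cond 2 (3 higher) and 8 in Cond 3 (5 higher), or 45.5% and 72.7% beside 20.9% and 38.4% of all genes.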

How the data were processed

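RNA-Seq was measured in 12 libraries, grouped by the treatment in the labels. The authors made poly(A), strand-specific libraries, trimmed the reads (cutadapt 4.1 and fastp 0.20.1, per the submitters' processing notes), aligned them to GRCh38 with HISAT2 2.1.0 and counted them with featureCounts, whose version and handling of reads matching several genes are not given in the sources used here. The authors deposited whole-number counts per gene without normalization, and TPM values, which are these counts per gene length scaled to a common total (largest relative deviation on recomputing 1.79e-14). Of 58580 lines of the count table, 5 held no whole gene row and were left out.

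Counts were tested with edgeR 4.0.16 in R 4.3.3 (TMM, filterByExpr, glmQLFTest) in one fit over 12 libraries, with Benjamini-Hochberg adjustment over 17747 genes. The SE is the absolute log2 fold change divided by the square root of F. Shares were tested with exact two-sided permutation tests. Replicates differed by more than sampling noise (chi-square per gene 3.99 to 9.42 over 12 pairs). The deviations of libraries from their condition means had correlations between -0.0131 and 0.0379 for same-numbered pairs. For pairs with different numbers they were between -0.0693 and 0.0607. These ranges overlap, so they cannot decide whether same-numbered libraries shared a plate. Positions and exon overlaps are from GENCODE 44, alternate haplotype sequences are the 261 of the reference, and 9 of 10 members matched RefSeq's promoter table. The fits were also run on simulated counts for Cond 2 against Cond 1 only, with the same spread for every gene and changes above 2-fold. Smaller changes, such as most of those called in members, were not simulated. The members, gene lists and promoters were chosen with earlier results of these data known. Besides the members, pathway genes were named when they were DEGs in any comparison or had the largest change of their role list in Cond 2 or Cond 3. FOXO1, FOXO3, IGFBP4, PIK3CB, PIK3R3, PIK3R2, INSRR, IGFBP1, INS and IGF1 were named outside this rule, after their values were seen, and some listed genes are not reported here by name. Alternatives were DESeq2 1.42.0, a fit without the filter on low counts, upper-quartile normalization, limma 3.58.1 on log2(TPM + 1) and log2(TPM + 0.1) in genes at 1 TPM, the 6 libraries compared alone, a replicate block, shares of counts instead of TPM, and each library left out in turn. Intervals for counting error are not given, and totals of at least 16441148 counts limit genes near 0 reads such as IGF2.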

Additional observations from a re-analysis of the deposited data

How the results depend on the processing

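Of 208 refits of the called comparisons of members, 194 kept the call and the direction and 14 lost the call. Of 260 refits of comparisons that were not called, 235 stayed so, 11 passed the threshold and 14 turned direction. For the named pathway genes, 411 of 423 refits of called comparisons kept the call and 12 lost it, and in none of the 423 did the direction turn. Why a call was lost or gained in a refit was not tested. Members called in Cond 2 against Cond 1 numbered 2 to 5 when 1 library was left out, with 2 without Cond 1 replicate 1, Cond 1 replicate 2 or Cond 2 replicate 2. Member DEGs in Cond 3 against Cond 1 numbered 1 with limma on log2(TPM + 1), as PIK3R1 was then at -0.795, and 1 to 3 when 1 library was left out. Member DEGs between Cond 3 and Cond 2 numbered 0 with upper-quartile normalization (IGFBP5 at -0.992) and with limma on log2(TPM + 1) (-0.947), and 0 to 1 when 1 library was left out.

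Among members, directions turned only in comparisons that were not called. With 1 library left out, the log2 fold change ranged from -0.019 to 0.466 for IGFBP5 in Cond 2 and from -0.064 to 0.039 for IRS1 in Cond 3, and in Cond 4 from -0.091 to 0.002 for IGFBP2, -0.36 to 0.228 for IGFBP5, -0.044 to 0.028 for INSR, -0.063 to 0.079 for IRS1 and -0.173 to 0.111 for PIK3R1. IRS1 in Cond 3 became 0.004 with upper-quartile normalization and 0.009 with limma on log2(TPM + 1) or log2(TPM + 0.1), and INSR in Cond 4 became 0.007 with both limma fits.

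The replicate block called 5 members in Cond 2 (IGF1R entered, adjusted p = 0.0454), 6 in Cond 3, 0 in Cond 4 and 6 between Cond 3 and Cond 2. The check of the deviations could not decide whether the numbers pair the libraries. The shares of IGF1R, IRS2 and IGFBP2 kept their direction with counts in place of TPM. With 1 library left out the IRS2 share in Cond 2 ranged from -3.39 to 0.582 points, and the direction of the IGF1R and IGFBP2 shares held in the 4 comparisons. The sum of IGF2 and INS-IGF2 equals IGF2 alone, since INS-IGF2 was listed at 0, and was not tested in the main fit. Depth limits IGF2, at 0 to 9 reads per library.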

Other observations

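The 3 genes for IGF2 mRNA-binding proteins, which bind the IGF2 transcript and many other mRNAs and are abundant in early embryonic cells, were all measured well above the filter. IGF2BP1 was at 212 ± 0.965 TPM (SD, n = 3) in Cond 1 and 273 ± 19.6 in Cond 2, where it was called higher (log2 fold change 0.28, adjusted p = 2.73e-04 by edgeR). IGF2BP2 was at 209 ± 2.61 TPM in Cond 1 and fell to 151 ± 10.6 in Cond 3 (log2 fold change -0.50, adjusted p = 1.70e-07). IGF2BP3 was at 126 ± 2.55 TPM in Cond 1 and 113 ± 10.9 in Cond 3 (log2 fold change -0.18, adjusted p = 0.0192). The naming of IGF2BP1 and IGF2BP3 followed a look at their values.

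The adaptor gene SHC1, which links the receptors to the RAS pathway, fell from 229 ± 18.4 TPM in Cond 1 to 183 ± 1.75 in Cond 2 (log2 fold change -0.41, adjusted p = 1.29e-05) and 142 ± 3.56 in Cond 3 (-0.72, adjusted p = 1.99e-09). ENPP1, a membrane protein that can inhibit the insulin receptor, fell from 17.6 ± 1.31 to 11.9 ± 1.3 TPM in Cond 2 (log2 fold change -0.65, adjusted p = 3.70e-05). Of the 12 adaptor and inhibitor genes listed, 4 were called in Cond 2 (2 higher) and 6 in Cond 3 (3 higher), or 33.3% and 50% beside 20.9% and 38.4% of all genes. SHC1 and ENPP1 were likewise picked once their values had been seen.

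Over the 12 libraries and 17623 genes, the genes whose log2(TPM + 1) was most like that of IGFBP3 were DGCR2 (Pearson r = 0.982), RGS5 (0.975) and MAPKBP1 (0.971), and those most like PIK3R1 were MCU (0.971), AGO3 (0.956) and TMEM168 (0.955). The points share the 4 conditions and 3 libraries each, so these values are a description.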
